A study of Mus musculus with 6 samples.

Results

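The transcripts that came down with AGO2 in macrophages meant to lack Dicer were read from a pair of arrays, the Dicer KO AGO2-RIP array and the Dicer KO IgG-RIP array. RIP is RNA immunoprecipitation, in which an antibody on beads pulls a protein and the RNA bound to it out of a cell extract. These are 2 of the 6 arrays of the series, which hybridised input RNA (taken before precipitation), AGO2-RIP RNA and IgG-RIP RNA (a control antibody) from each of 2 genotypes, with 1 array per group. Genes well above background on both KO precipitate arrays were taken as members, and 15643 of the 34755 genes on the array were. The KO input array and the 3 WT arrays were set beside them, and they also counted in the choice of each gene's probe.

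The KO cells came from LysM-Cre/Dicer flox/flox/Apoe-/- mice and the WT cells from LysM-Cre/Dicer wt/wt/Apoe-/- mice. Apoe, the gene for apolipoprotein E, was thus inactivated in both genotypes, and both carried Cre recombinase under the LysM promoter, which is active in myeloid cells. Per the labels, the mice were males aged 6 to 8 weeks. Bone marrow from their femora was grown into macrophages over 7 days in DMEM-F12 with 10% FCS and 10% medium conditioned by L929 cells, which supplies macrophage growth factor. The labels name neither the floxed exons nor the number of mice behind a sample, and a Cre that acts in myeloid cells removes Dicer only from cells in which it has been active.

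MicroRNAs (miRNAs) are short RNAs cut from hairpin precursors by Dicer. Loaded into an Argonaute protein such as AGO2, a miRNA pairs through its seed, the bases near its 5′ end, with sites that lie mostly in the 3′ ends of mRNAs, and the complex then slows translation and removes the poly(A) tail. An AGO2 precipitate is used to collect the transcripts that AGO2 holds, while IgG collects whatever sticks to beads and antibody. The comparison in KO cells asks which transcripts still stand above the IgG control where Dicer was to be missing.

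The arrays carry mRNA probes and do not measure the miRNAs themselves. Target lists of 6 miRNAs (or miRNA families) known from macrophages are described further on, and their mature sequences, from the RefSeq table of GRCm38.p6, are shown with bases 2 to 8, the seed that defines a target, in capitals.
mmu-let-7a-5p: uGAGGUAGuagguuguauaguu
mmu-miR-21a-5p: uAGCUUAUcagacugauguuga
mmu-miR-223-3p: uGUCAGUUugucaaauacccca
mmu-miR-155-5p: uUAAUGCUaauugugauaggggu
mmu-miR-17-5p: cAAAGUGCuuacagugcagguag
mmu-miR-146a-5p: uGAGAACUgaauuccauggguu
In the same table, 9 of 10 mature let-7 names of the 5p arm share the seed of let-7a, so that a let-7 target answers to a family. The 6 seeds printed here differ from each other. On GRCm38.p6, the copy of let-7a listed lies at chr13:48538239-48538260, miR-21a at chr11:86584120-86584141 and miR-146a at chr11:43374435-43374456, all on the minus strand. On the plus strand, miR-223 lies at chrX:96242884-96242905, miR-155 at chr16:84714143-84714165 and miR-17, the member of a cluster of miRNAs cut from the same precursor, at chr14:115043684-115043706.

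Levels below are log2 of the processed signal minus the 75th percentile of its array, so that 0 is the 75th percentile, and a difference is the KO AGO2-RIP level minus the KO IgG-RIP level unless stated otherwise. A level "with AGO2" or "with IgG" is that on the KO AGO2-RIP or IgG-RIP array. On the KO AGO2-RIP array 46.3% of the 59305 non-control spots were well above background, against 42.2% on the KO IgG-RIP and 41.0% on the KO input array, and 0 spots were saturated. Of 13 macrophage markers, 13 were above background on each of the 3 KO arrays, with summed levels of 10.39 (input), 9.83 (AGO2-RIP) and 10.26 (IgG-RIP). Among 13 markers measured in the precipitates, 0 were at least 2-fold higher in AGO2-RIP and 2 were at least 2-fold lower, Spi1 (-1.28) and Cd14 (-1.10). Markers of other cell types were above background in KO input for 3 of 7 B cell, 3 of 7 T cell, 2 of 7 dendritic cell, 1 of 7 erythroid, 3 of 6 megakaryocyte, 3 of 10 neutrophil, 2 of 7 osteoclast and 2 of 10 stromal cell genes, with Cd79a, Cd3d, Flt3, Ly6g, Ctsk and Col1a1 not above it. Others of these markers were bright in KO input, Csf3r at 6.84, Pf4 at 6.22, Siglech at 5.85, Cd22 at 4.17 and Nfatc1 at 2.73. These bright ones differed by -0.44 (Cd22) to -0.01 (Pf4 and Nfatc1) between the KO precipitates. Not all markers lay so close, and of 4 measured T cell markers 1 was at least 2-fold higher in KO AGO2-RIP and 0 were lower. Among the measured markers of each remaining non-macrophage type, 0 were 2-fold higher and 0 lower. Of markers above background on only 1 of the KO precipitate arrays, Zbtb46 (dendritic cell) was at least 11.9-fold lower in AGO2-RIP. Itga2b (megakaryocyte) was at least 2.24-fold higher. Medians by type ran from -0.68 (megakaryocyte) to 0.17 (stromal cell). Summed levels of these cell types lay between 0.62 and 6.86 for input, between -0.27 and 8.23 for AGO2-RIP and between 0.34 and 8.48 for IgG-RIP. The part of these cell types in the results was not tested. In RNA from bulk cells, fewer cells of a type and less RNA per cell cannot be told apart.

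The sex-linked transcripts went against the labels of the WT samples. Xist, the RNA that silences an X chromosome in females, was above background on all 3 WT arrays and on 0 KO arrays. The Y-linked Ddx3y and Eif2s3y showed the opposite, above background on all 3 KO and 0 WT arrays. Values within the KO pair hold no WT signal, but the WT arrays counted in the choice of each gene's probe and in the dropping of outlier spots. Where WT values are set beside them, genotype and the sex of the cells cannot be told apart. The genotypes also differed in Lyz2, a macrophage marker and the gene of the LysM promoter. It gave 5.66 in KO input and -2.19 in WT input, and was not above background in WT AGO2-RIP. The reason for this was not tested.

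Relative to IgG-RIP, 1635 of the 15643 measured genes (10.5%) were at least 2-fold higher in KO AGO2-RIP and 1549 (9.90%) at least 2-fold lower. The median difference over all measured genes was -0.19 and the SD across genes 0.88. Genes higher thus made up 51.4% of those past 2-fold, a share that moved to 67.5% when the background was corrected with normexp (1005 higher and 484 lower) and to 64.7% after an adjustment for the GC content of the probes (1987 and 1083). Among 9340 genes at or above the 75th percentile on both arrays, away from the dim end of the scale, 778 (8.33%) were higher and 526 (5.63%) lower. By single probes, 2322 of 21417 (10.8%) were higher and 2335 (10.9%) lower.

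With 1 array a side there is no replicate of the precipitation, no test was made, and 2-fold is a size only. The one error that can be measured is that of spots. Probes printed at 8 to 10 places gave a root mean square SD of 0.152 on the KO AGO2-RIP and of 0.185 on the KO IgG-RIP array, so a difference of single spots has a noise of 0.24. Cops7a, for a subunit of the COP9 signalosome, was such a probe, at 3.58 with AGO2 and 0.15 with IgG, a difference of 3.42 ± 0.03 (SE over 10 spots). Different probes of a gene differed far more than spots of a probe. Over the 3772 genes with 2 or more measured probes the root mean square SD between probes was 0.77. Of the 424 higher genes among them, 142 had every measured probe at least 2-fold higher and 176 had a probe of the opposite sign. Of the 347 lower genes, 77 had every probe at least 2-fold lower and 128 had a probe of the opposite sign.

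**Figure D1:**
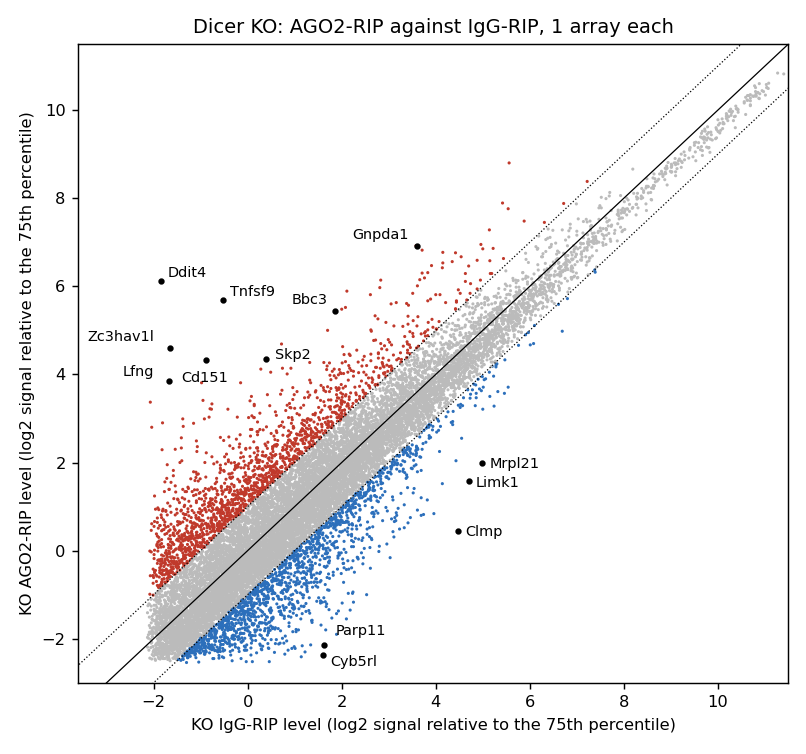
Each point is 1 of the 15643 measured genes, with its KO IgG-RIP level on the horizontal and its KO AGO2-RIP level on the vertical axis (log2 signal relative to each array's 75th percentile, 1 array each). Red genes are at least 2-fold higher in AGO2-RIP (1635), blue genes at least 2-fold lower (1549), the solid line marks equal levels and the dotted lines 2-fold. Most genes lie along the line, and Ddit4, Tnfsf9 and Zc3hav1l stand far above it at low IgG-RIP levels.

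The genes highest over IgG-RIP in KO were dim in IgG-RIP. The 15 genes with an assigned symbol and the highest differences ran from 4.04 (Smug1) to 7.97 (Ddit4). Their IgG-RIP levels lay between -2.07 and -0.53, near the lowest level that was well above background on that array (-2.15), while their AGO2-RIP levels lay between 2.29 and 6.12. Ddit4, the gene of a stress-induced inhibitor of mTOR (probe at mm9 chr10:59412486-59412545), gave 2.06 in KO input, 6.12 with AGO2 and -1.85 with IgG. It was thus high in AGO2-RIP against both other KO fractions, and on the WT arrays its AGO2-RIP minus IgG-RIP difference was 5.33.

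Tnfsf9, for a costimulatory ligand of the tumour necrosis factor family (chr17:57247062-57247121), gave 0.05 in input, 5.69 with AGO2 and -0.53 with IgG, a difference of 6.22. Zc3hav1l, a gene related to that of the zinc finger antiviral protein (chr6:38242230-38242289), gave 0.51, 4.60 and -1.65 in the same order, a difference of 6.25. For each of these 3 genes the input level lay far below the AGO2-RIP level. Chac1, for an enzyme that degrades glutathione (chr2:119179990-119180049), was not well above background in input and gave 2.80 with AGO2 and -2.04 with IgG, a difference of 4.84. Sertad3, for a transcriptional coregulator, gave 1.34 in input, 3.81 with AGO2 and -0.98 with IgG, a difference of 4.79. Klhdc3, for a substrate receptor of a ubiquitin ligase, gave -0.04, 3.41 and -0.95, a difference of 4.36. The WT differences of these 3 genes were 5.27, 3.97 and 4.69.

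In others of the 15 the IgG-RIP level lay far below input and the AGO2-RIP level less far above it. Lfng, for a glycosyltransferase that modifies Notch receptors, gave 3.0 in input, 3.85 with AGO2 and -1.67 with IgG. Its difference was 5.52, of which 0.85 lay above input. Likewise 2310061I04Rik gave 2.46 in input, 3.37 with AGO2 and -2.07 with IgG, a difference of 5.44. In Med6, for a subunit of the Mediator complex, the levels were 2.48, 3.33 and -0.76, a difference of 4.09. Esrra, for an orphan nuclear receptor of energy metabolism, gave 0.68, 2.90 and -1.81, a difference of 4.71. In WT, Lfng and Esrra differed by 1.45 and 1.26.

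Not every gene at the top was borne out by its other probes. Cd151, for a tetraspanin of the cell surface, gave 2.53 in input, 4.32 with AGO2 and -0.88 with IgG, a difference of 5.20, and its other measured probe gave 2.44. For Wdr45b, an autophagy gene, the levels of 2.29 with AGO2 and -1.82 with IgG gave a difference of 4.11, but its other measured probe gave 0.25 and the median of its probes 0.51. The measured probes of Zfp955b, a zinc finger gene, differed by 1.58 and 4.37. Nme4, for a mitochondrial nucleoside diphosphate kinase, and Smug1, for a DNA glycosylase of base excision repair, differed by 4.19 and 4.04 on their only measured probe, and Smug1 came to 1.8 with the median of its probes.

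The KO input array gives a second reference beside IgG-RIP. Of the genes with a RefSeq name, 349 were at least 2-fold higher in KO AGO2-RIP than in both KO IgG-RIP and KO input. The comparisons share the AGO2-RIP array and are no independent support for each other. The 12 genes with the highest smaller difference of the pair, a rule chosen after values were seen, were Tnfsf9, Zc3hav1l, Ddit4, Gna11, Btg2, Rnf111, Klhdc3, Tsc22d3, Bbc3, Gnpda1, Dusp1 and Fosl2. In most of them input and IgG-RIP lay close to each other and AGO2-RIP far above.

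Gna11, for a G protein alpha subunit, gave -0.35 in input, 3.81 with AGO2 and -0.15 with IgG, a difference over IgG of 3.96. Btg2, an antiproliferative gene whose protein recruits the CCR4-NOT deadenylase, gave -1.29, 3.03 and -0.82, a difference of 3.84. Rnf111, for a ubiquitin ligase of TGF-beta signalling, gave 0.38, 4.05 and 0.49, a difference of 3.56. In all of these, input and IgG-RIP lay within 0.5 log2 of each other. Tsc22d3, the glucocorticoid-induced leucine zipper gene, gave 2.76, 6.14 and 2.83, a difference of 3.31. Bbc3, for the apoptosis inducer PUMA, gave 2.26, 5.44 and 1.85, a difference of 3.59. Gnpda1, for an enzyme that turns glucosamine phosphate into fructose phosphate, gave 3.84, 6.91 and 3.61, a difference of 3.30. These 3 were bright on every KO array, so that no dim control spot entered their differences. Dusp1, for a phosphatase of MAP kinases, gave 1.20, 4.27 and 1.32, a difference of 2.95. Fosl2, for an AP-1 transcription factor, gave 2.91, 5.81 and 2.61, a difference of 3.19, and its other measured probe gave 1.74.

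**Figure D2:**
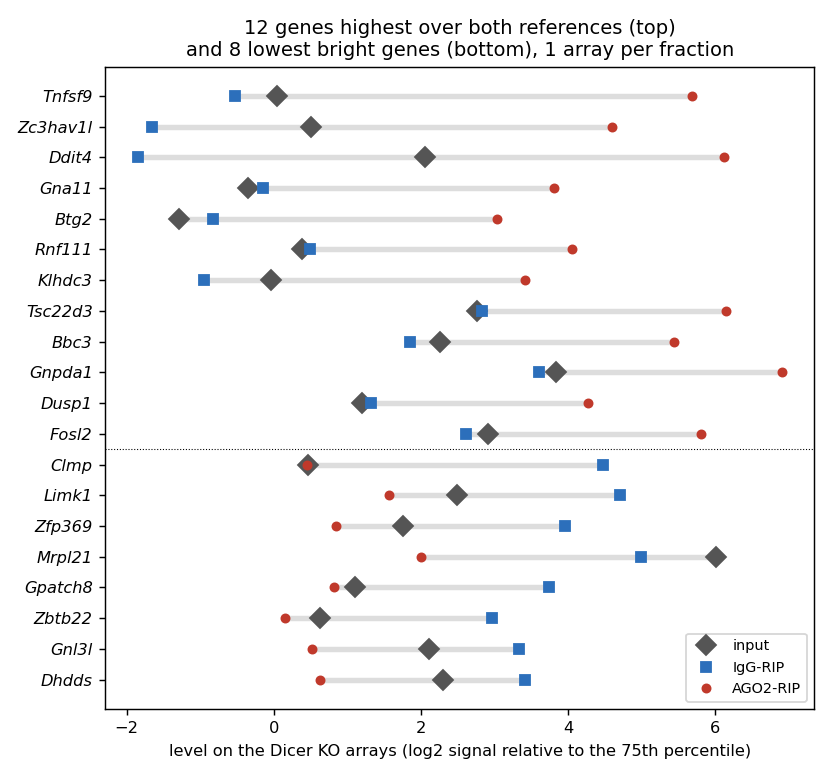
Levels on the KO input (grey diamonds), IgG-RIP (blue squares) and AGO2-RIP (red circles) arrays, in log2 signal relative to each array's 75th percentile with 1 array per fraction, for the 12 genes highest over both references (above the dotted line) and the 8 lowest bright genes (below it). In the upper genes AGO2-RIP lies apart on the right, with Gnpda1 at 6.91 against 3.84 and 3.61. In 7 of the 8 lower genes IgG-RIP is the highest fraction, and in Mrpl21 it is input.

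Bright genes and genes with several probes gave the differences least exposed to dim spots. Among genes at or above the 75th percentile on both arrays, the highest were Lpar6 (3.97), Skp2 (3.96), Bbc3 (3.59), Rnf111 (3.56), Ndufa3 (3.48), Ccnd3 (3.44), Mosmo (3.42) and Irf1 (3.39). Lpar6 encodes a lysophosphatidic acid receptor, and its measured probes both gave 3.97. Ccnd3, the cyclin D3 gene, gave 3.46 in input, 5.52 with AGO2 and 2.08 with IgG, with probes at 3.44 and 4.08. The transcript of Skp2, for a ubiquitin ligase subunit that drives entry into S phase, gave 2.45 in input, 4.35 with AGO2 and 0.39 with IgG. With the median of their probes, Irf1, Mosmo and Ndufa3 dropped to 2.15, 1.95 and 1.85.

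Judged by the lowest of their measured probes, the leading genes were Lpar6, Ccnd3, Gnpda1 (2.97 and 3.30), Trappc1 (2.64 and 3.22), Psenen (2.56 and 2.62), Cd151, Ccdc71l (2.24 and 3.62) and Tsen34 (2.23 to 2.75 over 3 probes). Trappc1 belongs to a vesicle tethering complex, Psenen to gamma-secretase and Tsen34 to the tRNA splicing endonuclease. The WT differences of these genes ran from 3.56 (Ccdc71l) to 4.70 (Cd151).

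Genes lower in AGO2-RIP than in IgG-RIP rested on fewer bright signals. The 15 lowest ran from -3.16 (Mob3b) to -4.03 (Clmp). Clmp, for an adhesion molecule of epithelial junctions (chr9:40590634-40590693), gave 0.46 in input, 0.45 with AGO2 and 4.48 with IgG. Its IgG-RIP level stood apart while the other fractions matched, and on the WT IgG-RIP array it was 1.14. Cyb5rl, for a relative of cytochrome b5 reductase, gave -0.81, -2.37 and 1.60, a difference of -3.96. Parp11, for an enzyme that attaches ADP-ribose, was not above background in input and gave -2.15 with AGO2 and 1.63 with IgG, a difference of -3.78.

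Slc8a1, for a sodium-calcium exchanger, gave -0.86 in input, -1.35 with AGO2 and 2.18 with IgG, a difference of -3.53. The differences of the other 11 were Gm12666 -3.54, Tulp3 -3.52, Cyhr1 -3.46, Nsun5 -3.32, Aldh4a1 -3.32, Gm3448 -3.20, Arfgef2 -3.20, Cideb -3.20, Yif1a -3.18, Tbc1d10a -3.17 and Mob3b -3.16. Among them are Nsun5, for an RNA methyltransferase, and Aldh4a1, for an enzyme of proline breakdown. Arfgef2 came to -0.01 and Cideb to -0.82 with the median of their probes. In Aldh4a1, AGO2-RIP (-2.16) rather than IgG-RIP (1.16) lay away from input (1.17).

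The lowest bright genes were Clmp, Limk1 (-3.13), Zfp369 (-3.12), Mrpl21 (-2.99), Gpatch8 (-2.92), Zbtb22 (-2.81), Gnl3l (-2.81) and Dhdds (-2.78). Limk1, for a kinase that regulates actin through cofilin, gave 2.49 in input, 1.57 with AGO2 and 4.70 with IgG. Mrpl21, for a protein of the mitochondrial ribosome, gave 6.01, 2.0 and 4.99, so that both precipitates lay under input. Zfp369 turned to 0.42 and Gpatch8 to 0.31 with the median of their probes, and Dhdds to -1.25. The genes lower on each of several probes were led by Bcs1l (-2.80 and -2.76), for an assembly factor of respiratory complex III, and Pgap2 (-2.51 and -2.26), for an enzyme that remodels GPI anchors. They also held Snrnp35, Rtf2, Gtf3c5, Pls3, Mphosph9 and Notch1, for the cell surface receptor, at -2.37 and -1.77.

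A further 2466 genes were above background on the KO AGO2-RIP array only and 1060 on the KO IgG-RIP array only, and 15586 on neither. For these a fold is a bound, taken from the bright level against the dim array's lowest level well above background, or against the dim probe's level where that was higher. Of those with a RefSeq name, 592 of 1632 had a bound of 2-fold or more towards AGO2-RIP and 350 of 619 towards IgG-RIP. Dusp2, for a phosphatase of MAP kinases in immune cells, led with 4.84 in AGO2-RIP and -0.35 in input, at least 127-fold higher than IgG-RIP. Dsel, for a dermatan sulfate epimerase, was at least 42.8-fold higher, Fam122a at least 32.2-fold and Pgpep1 at least 26.1-fold. Rogdi (24.3-fold, though another of its probes was measured at 0.15), Rcn1 (23.1-fold), Tlcd3a (22.5-fold) and Tiparp (22.2-fold) followed as bounds. Tiparp encodes an ADP-ribosyltransferase induced through the aryl hydrocarbon receptor.

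Towards IgG-RIP, Scfd2 was at least 86.1-fold, Dync2li1 at least 33.5-fold, Adra1a at least 29.9-fold, Zc3h7b at least 25.9-fold and Fgf1 at least 24.8-fold lower in AGO2-RIP. Arl9, Gsta3 and Pcbp3 had bounds of 20.8-fold, 19.6-fold and 16.6-fold. Scfd2, Dync2li1, Adra1a, Fgf1 and Arl9 were not above background in KO input.

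The genes of the pathway itself showed no common direction. Dicer1 gave -0.55 in KO input and 0.94 in KO AGO2-RIP and was not above background in KO IgG-RIP, which puts it at least 8.48-fold higher in AGO2-RIP. The labels do not say which exons are floxed, so the probe (chr12 on mm9) checks neither the deletion nor the labels. The signal of Ago2 was 3.01 in input, 3.07 with AGO2 and 3.43 with IgG, a difference of -0.35, with its 3 measured probes at -0.64 to 0.51. Among 24 measured genes of miRNA biogenesis and silencing, 4 (16.7%) were at least 2-fold higher and 3 lower, against 10.5% and 9.90% of all measured genes. For protein-coding genes alone the shares were 13.7% and 9.6%. Tnrc6a (1.58), for a GW182 protein that bridges Argonaute to deadenylases, Mov10 (1.52), for an RNA helicase, Tarbp2 (1.44), for a partner of Dicer, and Tsnax (1.01) were the higher genes, and Ago3 (-2.09), Adar (-1.05) and Snd1 (-1.05) the lower. The list median was -0.31, or -0.11 relative to all genes, with a range of -0.14 to 0.18 over the alternative settings.

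Apoe, whose gene is inactivated in both genotypes, gave -0.01 in input, -0.75 with AGO2 and 1.20 with IgG, a difference of -1.94 ± 0.09 (SE over 10 spots). Lcor, for a corepressor of nuclear receptors, gave 2.82, 2.59 and 1.99, a difference of 0.60, against 2.94 in WT. Of the 38 measured genes of deadenylation and mRNA decay, 3 (7.9%) were higher and 4 lower, against 10.5% and 9.90% of all measured genes. The 3 were Zfp36 (2.42), Zfp36l2 (1.17) and Zfp36l1 (1.01), which encode the tristetraprolin family of proteins that bind AU-rich elements, and the lowest was Cnot4 (-2.0), for a ubiquitin ligase of the CCR4-NOT complex, whose other measured probe gave 3.49. Another 5 were above background in AGO2-RIP only and 0 in IgG-RIP only, against 2466 and 1060 of all 34755 genes. Their bounds ran from 1.05-fold (Tob1) to 3.9-fold (Cnot3).

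Let-7 targets stood higher in the KO precipitate than most genes. Of 35 listed, 25 were measured, 9 of them at least 2-fold higher and 0 lower. Of all genes 10.5% were higher, and of protein-coding genes 13.7%. Their median was 0.76 against -0.19 for all genes, and 0.95 relative to all genes became 0.66 to 1.11 over the alternative settings. Hmga2, for a chromatin protein of embryonic growth, gave 2.35 in input, 4.28 with AGO2 and 2.35 with IgG, a difference of 1.93. Cdc25a, for a phosphatase that activates cyclin-dependent kinases, gave 0.40, 1.80 and -0.50, a difference of 2.30. Both the input and IgG-RIP levels of Hmga2 lay well under AGO2-RIP. Arid3a (1.90), Bach1 (1.89), Plagl2 (1.28), Cdc34 (1.09), Insr (1.09), Fndc3a (1.07) and Dusp1 (2.95) were the other higher members, and Thbs1 (-0.66) was the lowest. Of the 9, 5 were also at least 2-fold over KO input. Of all higher genes above background in input, 433 of 1560 (27.8%) were so, the base for this and the later counts over input. A further 3 members were above background in AGO2-RIP only, with bounds of 13.5-fold for Dna2, 2.42-fold for E2f5 and none for Igf1r, and Lin28a was so in IgG-RIP only. On the 23 members measured on all 4 precipitate arrays, the median was 0.93 in KO and 2.22 in WT. More genes of any kind passed 2-fold in WT, 20.9% higher and 21.8% lower against 10.3% and 9.0% in KO. Medians of other lists rose in WT too, from 0.33 to 1.07 for respiratory complex I and from 0.01 to 0.83 for lysosomal genes. That of nuclear receptor coregulators went from 0.63 to -0.34.

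The other target lists differed among themselves. Over all measured genes 10.5% were higher and 9.90% lower, the base for this and the following list counts. Among protein-coding genes alone, 13.7% of 9731 were higher and 9.6% lower, with a median of -0.08. Of 18 measured miR-223 targets 6 were higher and 0 lower, with a median of 0.54. They were Scarb1 (2.15), for the HDL receptor, Nfix (1.86), Rhob (1.44), Fbxw7 (1.34), Rasa1 (1.32) and Pknox1 (1.05), and 1 of the 6 was 2-fold over input too. The other measured probe of Nfix gave -0.03. Over the 16 members on 4 arrays the KO median of the miR-223 list was 0.62 and that in WT 0.53. Of 16 measured targets of the miR-17 cluster 4 were higher and 0 lower, with a median of 0.39. E2f3 (2.22), for a transcription factor of S phase, Bcl2l11 (1.58), for the apoptosis inducer BIM, Cdkn1a (1.32) and Bmpr2 (1.25) made up the 4.

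Of 13 measured miR-21 targets 6 were higher and 2 lower, and the members were widely split. Skp2 (3.96), Btg2 (3.84), Smad7 (1.95), Tpm1 (1.75), Rhob (1.44) and Jag1 (1.18) were higher and Fasl (-1.07) and Bcl2 (-1.02) lower, with the median at 0.04. The 3 measured probes of Tpm1 ran from -0.64 to 1.99. Of 19 measured miR-155 targets 4 were higher and 2 lower, with a median of 0.08 in KO and, over 18 genes on 4 arrays, of 0.09 in KO and 1.34 in WT. Bach1 (1.89), Cebpb (1.69), Bcl6 (1.60) and Smad2 (1.25) were the higher members, and 0 of the 4 were 2-fold over input. Spi1 (-1.28), for the macrophage transcription factor PU.1, and Ikbke (-1.20) were lower. Another 2 were above background in AGO2-RIP only and 0 in IgG-RIP only, against 2466 and 1060 of all 34755 genes. Their bounds were 6.15-fold for Socs1 and 1.02-fold for Rictor. Of 8 measured miR-146a targets 0 were higher and 1 lower, Notch1 (-2.37), with a median of -0.26. Dusp1, Bach1, Btg2, Rhob and Cdkn1a each stand in more than 1 of the lists described here.

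Lists of short-lived mRNAs had medians well above that of all genes. Of 33 listed transcripts with AU-rich elements, which recruit decay factors, 17 were measured, 9 of them at least 2-fold higher and 0 lower, with a median of 1.07. Another 7 were above background in AGO2-RIP only and 0 in IgG-RIP only, against 2466 and 1060 of all 34755 genes. Ccl2, for a chemokine that draws monocytes, gave 5.04 in input, 6.53 with AGO2 and 4.15 with IgG, a difference of 2.38 ± 0.04 (SE over 10 spots). Tnf, for the cytokine, gave 1.96, 2.63 and 0.21, a difference of 2.42 ± 0.08 on the same number of spots. The AGO2-RIP level of Ccl2 lay above input by more than 2-fold and that of Tnf by less. Myc, for the growth transcription factor, gave 1.03, 2.75 and 0.09, a difference of 2.66. Dusp1 (2.95), Ccl7 (2.48), Zfp36 (2.42), Ccl3 (2.22), Nfkbiz (1.46) and Csf1 (1.07) were also higher, and the lowest were Fos (-0.45) and Pim1 (-0.16). Of the 9, 6 were 2-fold over input too.

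Immediate early genes, which are switched on within minutes of a stimulus, had 10 of 20 measured members higher and 1 lower, with a median of 0.93. Besides Btg2 (3.84), Fosl2, Dusp1, Myc and the 3 Zfp36 genes, Klf2 (1.74), Atf3 (1.59) and Klf10 (1.20) were higher, and Fosb (-1.10) was lower. Above background in AGO2-RIP only were Dusp2, Ier3 (at least 11.3-fold), Klf11 (at least 6.63-fold), Ier2 and Klf4, and in IgG-RIP only Csrnp1, Ier5 and Egr2. A list of other rapidly turned over regulators had 9 of 19 higher and 2 lower, with a median of 0.96. Cebpd, for a transcription factor of the acute phase response, gave 1.35 in input, 2.49 with AGO2 and -1.09 with IgG, a difference of 3.58. Tgif1, for a repressor in TGF-beta signalling, gave 1.15, 3.06 and 0.09, a difference of 2.97. Each of these exceeded input by over 1 log2 as well. Sertad3, Irf1, Myc, Cebpb, Bcl6, Elf4 (1.22) and Arid5b (1.01) were the others higher, and Sp1 (-1.42) and Arid5a (-1.04) were lower.

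Relative to the median of all genes, these 3 medians were 1.26 (AU-rich), 1.12 (immediate early) and 1.16 (rapid turnover). Over the alternative settings they stayed between 0.82 and 1.82, 0.84 and 1.18, and 1.00 and 1.23. The lists share genes, with 4 measured genes in both of the first pair. In WT, where a larger share of all genes passed 2-fold, these medians were higher still. They were 1.98, 1.89 and 1.81 over the members measured on 4 arrays. At least 2-fold higher in both genotypes were 8, 8 and 9 of these 17, 19 and 19 members, against 887 of all 14046 genes. Of 15 measured chemokines 4 were higher and 0 lower, with Cxcl14 (1.49) next to Ccl2, Ccl3 and Ccl7, and the median was 0.07. Ccl4, at 4.44 with AGO2 and 4.19 with IgG, differed by 0.24. Of 5 measured ligands of the tumour necrosis factor family 3 were higher, Tnfsf9, Tnf and Tnfsf12 (1.10), and 1 was lower, Fasl, with a median of 1.10. The other measured probe of Tnfsf12 gave 0.47. Tnfsf14, above background in IgG-RIP only, was at least 4.21-fold lower, and Ltb, so in AGO2-RIP only, had no bound. Relative to all genes the median of these ligands was 1.29, with a wide range of 0.0 to 1.42 over the alternative settings.

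**Figure D3:**
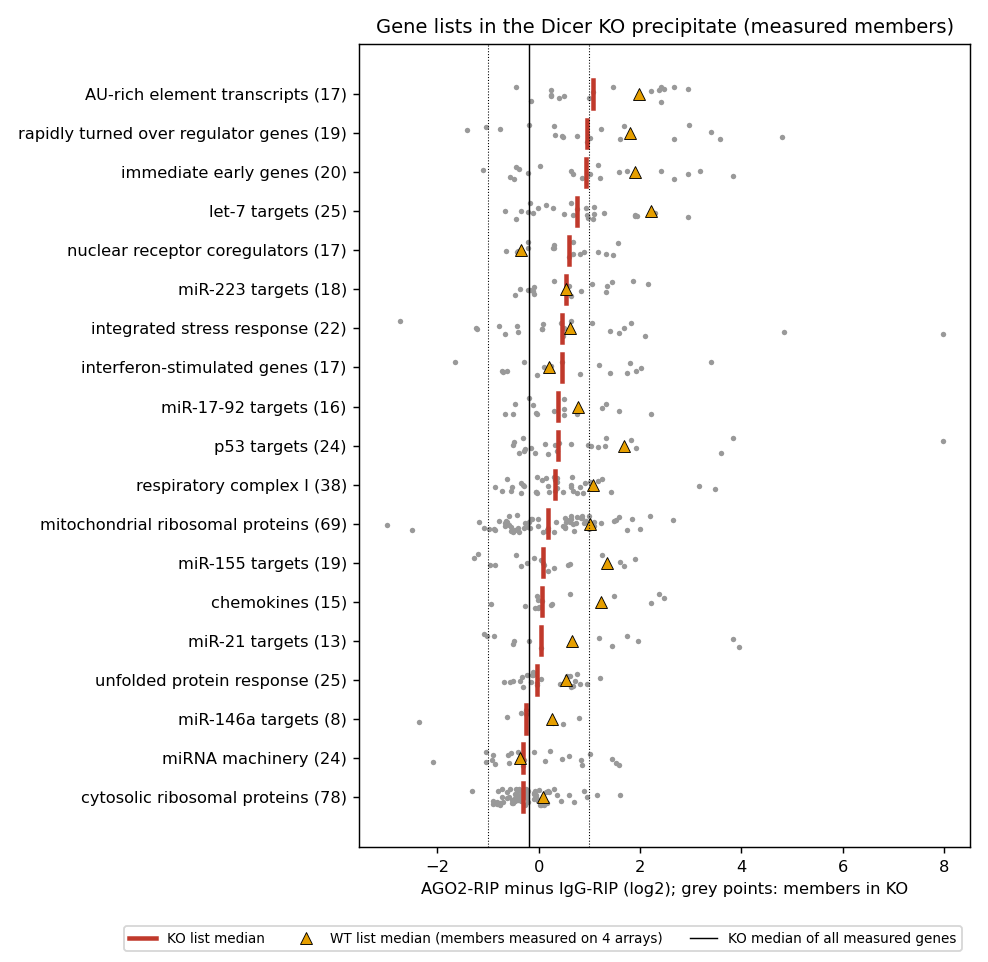
Each grey point is a measured member of a gene list in Dicer KO, placed by its AGO2-RIP minus IgG-RIP difference (log2, 1 array a side), with the number of measured members after the list's name, red bars at the KO list median and orange triangles at the WT median over the members measured on 4 arrays. The black line is the KO median of all measured genes (-0.19) and the dotted lines mark 2-fold. Medians run from 1.07 for AU-rich element transcripts to -0.32 for cytosolic ribosomal protein genes, and most triangles lie to the right of the bars.

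Stress pathways differed by branch. The p53 targets had 9 of 24 measured members higher and 0 lower, with a median of 0.38. Ddit4, Btg2, Bbc3, Tnfrsf10b (1.92), Sesn2 (1.82), Cdkn1a, Sesn1 (1.30), Plk2 (1.16) and Phlda3 (1.03) made up the 9, and Mdm4 (-0.50) and Aen (-0.49) were lowest. On 23 members measured in both genotypes the median was 0.36 in KO and 1.68 in WT. The integrated stress response, in which ATF4 turns on genes of amino acid supply, had 8 of 22 higher and 3 lower, with a median of 0.45. Psat1 (2.10), for an enzyme of serine synthesis, and Gdf15 (1.41), for a stress cytokine, joined Ddit4, Chac1, Sesn2, Cebpb, Atf3 and Sars (1.06), while Shmt2 (-2.74), Nupr1 (-1.23) and Wars (-1.21) were lower. The other measured probe of Psat1 gave -0.20. The endoplasmic reticulum branch of the unfolded protein response had 1 of 25 higher, Eif2ak3 (1.21), and 0 lower, with a median of -0.04. Among hypoxia targets 4 of 20 were higher, led by Ddit4 and Kdm3a (2.07), and 2 were lower.

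Of 17 measured interferon-stimulated genes 7 were higher and 1 lower, with a median of 0.45. Irf1, for a transcription factor of the interferon response, gave 1.94 in input, 4.14 with AGO2 and 0.74 with IgG, a difference of 3.39. Xaf1 (2.01), Ifit3 (1.91), Irf9 (1.81), Rsad2 (1.75), Oas3 (1.40) and Oasl2 (1.19) were higher and Oas1a (-1.65) lower, and 2 of the 7 were over input. Unlike the lists of short-lived mRNAs, these genes had a lower median in WT (0.20). Of 15 measured genes of NF-kB feedback 4 were higher, led by Nfkbid (2.14) and Nfkbib (1.60), and Tnip1 (-1.22) and Rela (-1.20) were lower. Another 4 were above background in AGO2-RIP only and 0 in IgG-RIP only, against 2466 and 1060 of all 34755 genes. Their bounds were 7.3-fold for Bcl3, 5.92-fold for Traf1, 3.65-fold for Cyld and 1.22-fold for Otud7b, though another probe of Cyld was measured at -0.21. The median of the measured NF-kB feedback genes relative to all genes was 0.57 and 0.18 with normexp.

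Signalling at the cell surface and in the nucleus gave mixed lists. The Notch pathway had 4 of 22 higher and 4 lower. Lfng (5.52), Psenen (2.56), Pofut1 (1.37), which adds fucose to Notch, and the ligand gene Jag1 (1.18) were higher, while Dtx3 (-2.78), Notch1 (-2.37), the ligand gene Dll4 (-2.31) and Mfng (-1.49) were lower. Lfng and Mfng, whose products are related glycosyltransferases, thus lay on opposite sides. Nuclear receptor genes had 3 of 18 higher, Esrra, Thra (1.63) and Pparg (1.35), and 4 lower, led by Nr2c1 (-1.85) and Nr2c2 (-1.73). Their coregulators had 4 of 17 higher and 0 lower, with a median of 0.60. Among them were Pprc1 (1.57), Hdac3 (1.47) and Ncoa4 (1.16), and Lcorl (-0.65) was lowest. For the coregulators the WT median over 16 genes was -0.34 against 0.63 in KO.

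Among housekeeping lists, the cytosolic ribosome lay near all genes, and mitochondrial lists somewhat above them. Cytosolic ribosomal protein genes had 2 of 78 higher, Rpl38 (1.61) and Rps27l (1.15), and 1 lower, Rps2 (-1.32), with a median of -0.32. Mitochondrial ribosomal protein genes had 11 of 69 higher and 4 lower, with a median of 0.19, from Mrpl36 (2.64) and Mrpl53 (2.19) to Mrps11 (-2.50) and Mrpl21 (-2.99). Respiratory complex I had 6 of 38 higher and 0 lower, with a median of 0.33. Ndufa3, a small subunit of the complex, gave 3.65 in input, 5.48 with AGO2 and 2.0 with IgG, and Ndufa4 gave 5.16, 5.97 and 2.81. For both lists of mitochondrial genes the median against KO input was low in AGO2-RIP (-1.40 and -1.23) and as low in IgG-RIP (-1.52 and -1.60), and 1 higher gene in each was 2-fold over input. The complexes II to V had 3 of 44 higher and 2 lower, lysosomal genes 2 of 45 higher and 3 lower, and replication-dependent histones 2 of 33 each way. Their shares of higher genes were 6.8%, 4.4% and 6.1%, against 10.5% of all genes.

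Cell cycle genes had 8 of 38 higher and 5 lower. Ccnd3, Cdc25a, Bub1 (2.11), for a kinase of the spindle checkpoint, Ccne1 (1.81), Top2a (1.73), Ccnb1 (1.71), Ccna2 (1.46) and Cdc25b (1.27) were higher, and Cdk2 (-2.38) and Rrm1 (-1.41) were lowest. The 3 measured probes of Ccnb1 ran from -0.37 to 1.71. The median was 0.19, and over 35 genes on 4 arrays it was 0.30 in KO and 1.18 in WT. Of 373 numbered zinc finger genes, most of which encode DNA-binding repressors, 199 were measured, 35 of them higher and 16 lower. A further 52 were above background in AGO2-RIP only and 11 in IgG-RIP only, against 2466 and 1060 of all 34755 genes. Of the 35, 21 were 2-fold over KO input. Their median, 0.02, was 0.21 above that of all genes.

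The KO input array shows on which side the difference arose. Among the higher genes above background in input (1560 of 1635), the median AGO2-RIP minus input was 0.35 and the median IgG-RIP minus input -1.26. Of these, 433 (27.8%) were 2-fold higher in AGO2-RIP than in input, and 938 (60.1%) were 2-fold lower in IgG-RIP than in input. Over all measured genes the shares were 14.8% and 29.1%, and the medians -0.25 and -0.27. For the lower genes (1228 above background in input), 593 (48.3%) were 2-fold lower in AGO2-RIP than in input and 445 (36.2%) were 2-fold higher in IgG-RIP. Of the lower genes 20.7% were dim in input, against 4.6% of the higher genes and 10.4% of all. These comparisons share arrays and are given as a description.

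The WT precipitates share no array with those of KO. Of the 1451 KO-higher genes measured on all 4 precipitate arrays, 887 (61.1%) were at least 2-fold higher in WT too and 134 (9.2%) at least 2-fold lower. Over all 14046 genes measured on the 4 arrays, 2932 (20.9%) were higher in WT and 3067 (21.8%) lower. The median WT difference of the KO-higher genes was 1.61, against -0.22 for all genes. Of the 311 genes at least 4-fold higher in KO, 75.9% were at least 2-fold higher in WT. Among KO-higher genes not measured on all 4, 151 were above background on the WT AGO2-RIP array only, 20 on the WT IgG-RIP array only and 13 on neither.

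The lower genes matched less. Of 1261 KO-lower genes, 369 (29.3%) were at least 2-fold lower in WT and 139 (11.0%) higher, with a median of -0.54, and among those at least 4-fold lower in KO 28.1% were lower in WT. Seen from WT, 30.3% of its 2932 higher genes were higher in KO and 12% of its 3067 lower genes were lower in KO, against 10.3% and 9.0% of all genes on the 4 arrays. Of the 349 genes over both KO references, 300 were measured on the 4 arrays, and in 240 of these (80.0%) the WT difference was 2-fold or more too.

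Tnfsf9, Ddit4, Chac1, Cd151, Klhdc3 and Zc3hav1l had the highest smaller difference of both genotypes, all at 4.34 or more. Gna11 and Btg2 were not above background on the WT IgG-RIP array, where their AGO2-RIP levels of 4.35 and 4.01 put them at least 6.38 and 6.05 log2 higher. Some genes were high in KO and low in WT. Cxcr6, for a chemokine receptor, gave 1.19 with AGO2 and -0.89 with IgG in KO but -0.91 and 2.47 in WT, differences of 2.08 and -3.39. Tent5a, for a poly(A) polymerase, differed by 3.28 in KO and by -1.43 in WT, though its other measured probe gave 0.81 in KO. Ica1 (2.89 in KO, -2.07 in WT), Mvp (1.33, -3.39), Zfp108 (2.64, -2.07) and Lrrc20 (2.37, -2.16) were the others with the highest KO minus WT difference. In each of the 6 the WT IgG-RIP level exceeded the KO IgG-RIP level, by 2.33 (Zfp108) to 4.08 (Lrrc20).

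**Figure D4:**
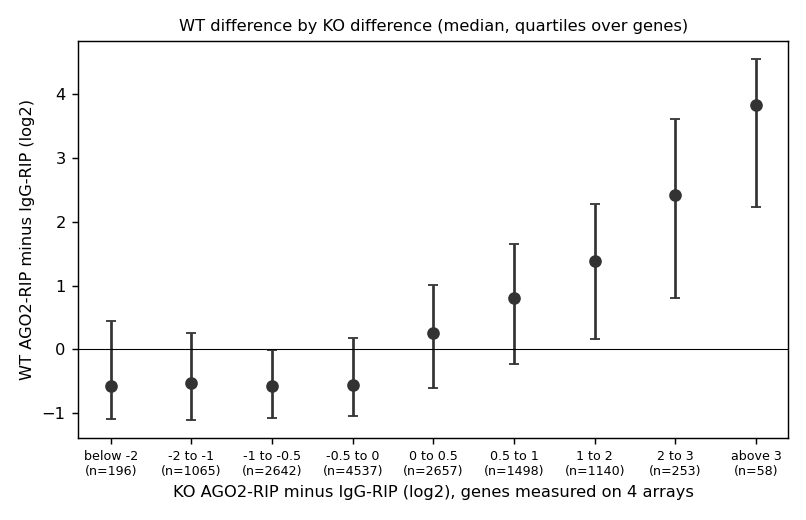
WT AGO2-RIP minus IgG-RIP differences (log2, vertical axis) of the 14046 genes measured on all 4 precipitate arrays, in bins of the KO difference (horizontal axis), with points at the median over genes and bars from the lower to the upper quartile, which is a spread over genes and not an error. The WT median goes from 0.26 in the bin from 0 to 0.5 to 3.84 above 3, and lies between -0.58 and -0.53 in the 4 bins below 0.

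The difference moved with properties of the probes. By GC content, the median KO difference went from 0.05 for probes of up to 35% GC (14.5% of 4168 at least 2-fold higher) to -0.39 above 55% (2.8% of 811). The WT medians went the same way, from 0.41 to -0.70. The part of GC content in the differences of single genes was not tested. After the GC adjustment, the medians relative to all genes were 1.22 for AU-rich element transcripts (1.26 without), 0.91 for let-7 targets (0.95) and 0.94 for immediate early genes (1.12). By level in KO input, 16.9% of the genes between 1 and 2 were higher, against 4.7% of those below -2 and 5.0% of those above 4. Protein-coding genes were higher in 13.7% of 9731 cases, with a median of -0.08, against 4.7% of 322 long non-coding RNA genes (-0.36) and 5.5% of 2406 lincRNA probe sets (-0.31).

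**Figure D5:**
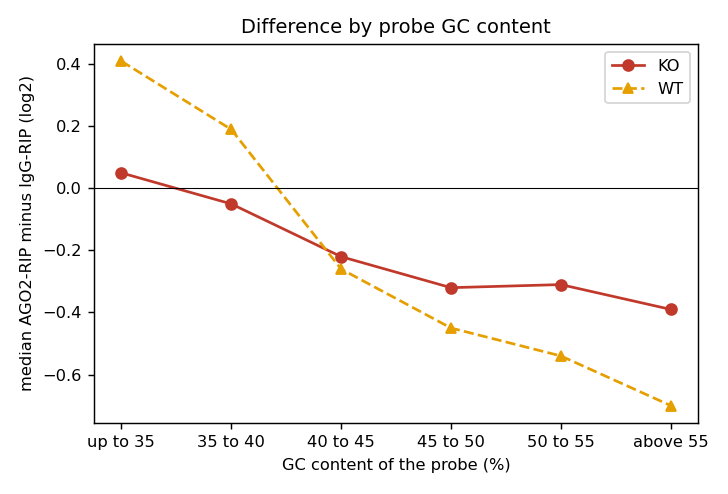
Median AGO2-RIP minus IgG-RIP difference (log2, vertical axis) of measured probes by GC content (horizontal axis, percent) in KO (red circles, genes measured on the KO pair) and WT (orange triangles, measured on all 4 precipitate arrays), with 1 array a side. Both lines go down with GC content, from 0.05 to -0.39 in KO and from 0.41 to -0.70 in WT.

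Some probes happen to hold a seed match, and their signal measures the transcript that carries it, not AGO2 at the site. The 60-base probes were searched for the match to the let-7 seed (CTACCTC), which 83 of the 21417 measured probes held (0.388%), and 18.1% of these were at least 2-fold higher, against 10.8% of all probes. The reversed complement GAGGTAG, which reads like the seed itself, stood in 43 probes, of which 11.6% were higher. For miR-21 (ATAAGCT, 52 probes, 0.243%) the share was 21.2%, and for its reversed complement AGCTTAT 19.2% of 73. For miR-223 (AACTGAC, 71 probes, 0.332%) it was 18.3% against 8.6% of 70 for GTCAGTT, and for miR-155 (AGCATTA, 70 probes, 0.327%) 11.4% against 14.1% of 64 for TAATGCT. The median differences of the seed-match probes lay between -0.21 and 0.01, around the -0.19 of all probes. The pentamer ATTTA of AU-rich elements stood in 1505 probes (7.03%), with 13.3% higher, and its reversed complement TAAAT in 1966 (9.18%), with 12%. No site overlap between these motifs was removed, and a match is a description of letters and not of binding.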

How the data were processed

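Per the labels' protocols, RNA of 6 samples (1 per group) was copied to cDNA and pre-amplified, and Cy3 label was added to 500 ng of each. The deposited files hold the intensity of each spot from Agilent Feature Extraction 10.7.3.1, per the file headers and the submitters' processing notes, with background subtracted and no scaling between arrays. Equal cDNA mass on each array leaves out the amount of RNA precipitated. The 6 arrays lay on 1 slide.

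Levels were log2 intensity minus each array's 75th percentile over non-control spots. Replicate spots were averaged. Spots flagged as outliers on any array were left out, and 54 of 55681 probes, with no spot left, were dropped. A gene took its probe with the highest mean level over all arrays. Where it was dim on 1 array, the lowest level well above background bounded the fold. Of the probes, 27737 were named by accession, 3349 by symbol and 313 by synonym through the RefSeq table of GRCm38.p6, and 24282 kept the array's name. Coordinates are those of the array files (mm9). Probes can share signal between close paralogs.

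Members, lists and comparisons were chosen with earlier results of these data known. Named genes are the 15 highest and lowest with a symbol, the 8 highest and lowest bright genes, those led by their weakest of several probes, the 8 highest bounds each way, the 6 highest KO minus WT differences, the 6 highest in both genotypes, Dicer1, Ago2, Apoe, Lcor and members of described lists, of which higher and lower members beyond the 2 at each end were named after their values were seen, as were Cops7a and the genes over both references. The sources used here do not say whether samples came from separate animals. Alternatives were normexp (limma 3.58.1 in R 4.3.3, offset 50), median and quantile scaling, filters on dim genes, the median of a gene's probes, outlier spots kept, other fold thresholds and, added after seeing the data, a GC adjustment. Python 3.11.15 with numpy 2.4.6 and pandas 2.3.3 did the rest. The counting of folds was tested on simulated data. Some list members and markers are not reported here.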

Additional observations from a re-analysis of the deposited data

Results flagged for a closer look

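Genes past 2-fold in opposite directions in the 2 genotypes were picked out, a difference that was not tested, since each side has 1 array. They numbered 134 genes higher over IgG-RIP in KO and lower in WT, and 139 lower in KO and higher in WT. Among the genes named above and measured on all 4 precipitate arrays, those higher in KO were Tent5a (3.28 in KO and -1.43 in WT), Ica1 (2.89 and -2.07), Zfp108 (2.64 and -2.07), Lrrc20 (2.37 and -2.16), Cxcr6 (2.08 and -3.39), Nfix (1.86 and -1.70), Top2a (1.73 and -1.61), Nfkbiz (1.46 and -1.10), Oas3 (1.40 and -1.35), Mvp (1.33 and -3.39) and Tsnax (1.01 and -1.04). Those lower in KO were Limk1 (-3.13 in KO and 1.14 in WT), Bcs1l (-2.80 and 2.14), Cdk2 (-2.38 and 2.16), Sp1 (-1.42 and 1.13) and Nupr1 (-1.23 and 1.38). Named genes that were dim on the WT IgG-RIP array have a bound instead, with Notch1 (-2.37 in KO) at least 3.48 log2 higher in WT, Pgap2 (-2.51) at least 2.88, Aldh4a1 (-3.32) at least 2.51, Cyhr1 (-3.46) at least 1.79 and Mob3b (-3.16) at least 1.24. Input levels were 2.49 in KO and 2.84 in WT for Limk1, and 1.20 and 1.42 for Bcs1l. The sex of the cells and the level of Lyz2 went with genotype.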

How the results depend on the processing

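No paired analysis was possible because each group has 1 array. Without replicates the spread of culture and precipitation is unknown, and dim spots bound the lower end. The counts of higher and lower genes moved to 1005 and 484 with normexp, with a share of higher genes of 67.5% and 73.2% of the KO-higher genes higher in WT, and to 4099 and 4278 with no filter on dim genes, with 43.4% in WT. They were 2900 and 3806 at 1.5-fold and 354 and 266 at 4-fold, and the lower genes numbered 971 among genes above background on all arrays. The GC adjustment, chosen after seeing the data, moved the share of higher genes to 64.7%. The median of all genes shifted by 0.10 with normexp, by -0.19 with no filter and by 0.19 with the GC adjustment. Of 702 values of 72 named genes, 699 kept their sign. Many of these genes were named for their large differences, and every setting reads the same arrays, so this count cannot show robustness. The sizes of the differences held less well. With normexp 61 of the 72 were counted as moved, with quantile scaling 42, with the median of probes 28 and with the GC adjustment 15. With median scaling and with outlier spots kept, 0 moved. Gpatch8 (0.31), Zfp369 (0.42) and Ago2 (0.51) turned with the median of probes. The cause was not tested. Of 318 medians of 32 lists, 295 moved by no more than the spot noise.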
